A study of Mus musculus with 8 samples.

Results

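The genes that encode the proteins of the cytosolic ribosome were examined in RNA sequencing of mouse heart. The members were the rows of the deposited table that were annotated as protein coding, whose symbol followed the standard *Rpl*, *Rps*, *Rplp* or *Rpsa* nomenclature, and whose mean normalised count over the 8 libraries was at least 10. A normalised count is the number of read pairs on a gene divided by 1 scaling factor per library. The rule gave 78 genes of the 54508 listed, of which 47 encode proteins of the large subunit and 31 proteins of the small subunit. A further 2 protein-coding rows matched by name but lay under the limit, namely *Rpl39l* with a mean of 1.47 and *Rpl10l*, which was listed at 0 in each of the 8 libraries. The members nearest to the limit on its inner side were *Rpl17*, with a mean of 439, and *Rps10*, with a mean of 651. Another 3 matching rows were annotated as pseudogenes and were left out.

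Total RNA came from hearts of C57BL/6 mice aged 24 weeks. The 4 *Rnaseh1* knockout mice (RNase H1-/- in the labels) carried *Rnaseh1* alleles floxed around exon 2 together with *Ckmm-cre*, which places Cre under the muscle creatine kinase promoter and is active in heart and skeletal muscle, so that other cells of the heart keep the gene. The 4 wild type mice (RNase H1+/+ in the labels) are described in the study as floxed controls, and an effect of Cre itself cannot be told apart from the loss of RNase H1, an enzyme that degrades RNA in RNA:DNA hybrids. The whole-gene count of *Rnaseh1* was 182, 145, 166 and 166 in knockout hearts, against 129, 144, 158 and 129 in wild type hearts (log2 difference 0.23 ± 0.12 SE, limma adjusted p = 0.114). The count takes in the exons outside the deletion, and reads within the deleted exon were not analysed here, so that it was not used as a check of the labels. By qPCR the study found *Rnaseh1* transcript reduced in knockout hearts, a fall that the whole-gene count did not show. The reason for this difference was not tested.

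A ribosome consists of a small subunit, which decodes the mRNA, and a large subunit, which joins the amino acids. Each subunit is built on ribosomal RNA and holds 1 copy of most of its proteins, and the mRNAs of these proteins begin with a terminal oligopyrimidine (TOP) tract that places their translation under mTOR. Most of the proteins are made in every cell. An exception is Rpl3l, which is restricted to striated muscle and takes the place of Rpl3, a protein near the catalytic centre of the large subunit, in adult heart and skeletal muscle.

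The sequence around the annotated start of some members holds a pyrimidine run of the kind found in this class. *Rpl3l* is shown beside them as an example without CTTTCC near the start, which was the case in most member windows. RefSeq windows from 250 bases before to 50 bases after a start (GRCm38.p6) were at hand for 58 of the 78 members, in 70 windows, and among 32851 windows of all genes. *Rpl3* was among the members without a window. The lines below give 20 bases before to 10 bases after the start, 5′ to 3′ on the gene's strand, with CTTTCC in capitals: chr2:39005122-39005151 on the minus strand for *Rpl35*, chr9:64173367-64173396 on the plus strand for *Rpl4*, chr11:114668560-114668589 on the plus strand for *Rpl38*, chr3:90213639-90213668 on the minus strand for *Rps27* and chr17:24727806-24727835 on the plus strand for *Rpl3l*.
Rpl35: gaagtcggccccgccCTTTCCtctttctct
Rpl4: agtCTTTCCttttcctgtgggagcagccgg
Rpl38: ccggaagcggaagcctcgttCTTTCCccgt
Rps27: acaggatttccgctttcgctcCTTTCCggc
Rpl3l: cagctgagtgttctagctctgtcatttgac

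The capitals lie after the annotated start in *Rpl38* and *Rps27*, mostly before it in *Rpl35* and wholly before it in *Rpl4*. They thus need not mark the first bases of the mRNA. In these short windows the letters CTTTCC on the gene's strand were found in 12.9% of the member windows and in 1.5% of all windows. Over the whole window and on both strands they were in 48.6% of member windows and 26.6% of all windows, and on the gene's strand alone in 38.6% of member windows and 14.1% of all windows. The letters CCGGAAG, a core that ETS factors bind, were found on either strand in 35.7% of member windows and in 8.86% of all windows. CTTTCC ends in the letters CC with which CCGGAAG begins, so that matches to both can share these bases. The letters TGATGNAAT were in 0 of the 70 member windows and in 0.965% of all windows, and CATTCC was in 8.57% of member windows and 14.7% of all windows. A MEF2 motif and a CArG box were each in 1.43% of member windows, against 3.19% and 1.63% of all windows. The one member with a MEF2 match was *Rpl3l*, in a window that belongs to a second, internal start.

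The upstream part of *Rpl3l* is shown because its transcript changed most among the members. It holds 3 matches to CANNTG, the E-box read by basic helix-loop-helix factors, which are in capitals (chr17:24727576-24727825 on the plus strand for *Rpl3l*). The same letters were found in 51.4% of member windows and in 72.3% of all windows, so that a match is common.
Rpl3l: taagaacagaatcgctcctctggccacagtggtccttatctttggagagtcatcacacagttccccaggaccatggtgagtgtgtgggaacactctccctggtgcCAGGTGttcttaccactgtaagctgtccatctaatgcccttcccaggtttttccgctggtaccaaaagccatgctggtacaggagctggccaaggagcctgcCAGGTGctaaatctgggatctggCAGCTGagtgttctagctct

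Ribosomal protein transcripts were higher in the knockout hearts almost throughout. Of the 78 members, 73 rose, 2 fell (*Rpl3l* and *Rps2*) and 3 did not pass the test (*Rps27*, *Rps29* and *Rpl36*), by limma on log2(normalised count + 1) with Benjamini-Hochberg adjustment over 17046 genes. Over all genes tested 30.7% were called higher and 28.4% lower. The median log2 difference of the members was 0.54, which is 1.45-fold, with quartiles at 0.35 and 0.74, whereas the median over all genes tested was 0.02. In 72 members each knockout heart lay above each wild type heart, and in 2 members below, against 28.2% and 26.5% of all genes. The groups overlapped in the remaining 4, namely the 3 not called and *Rps21*, which passed the test.

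**Figure D1:**
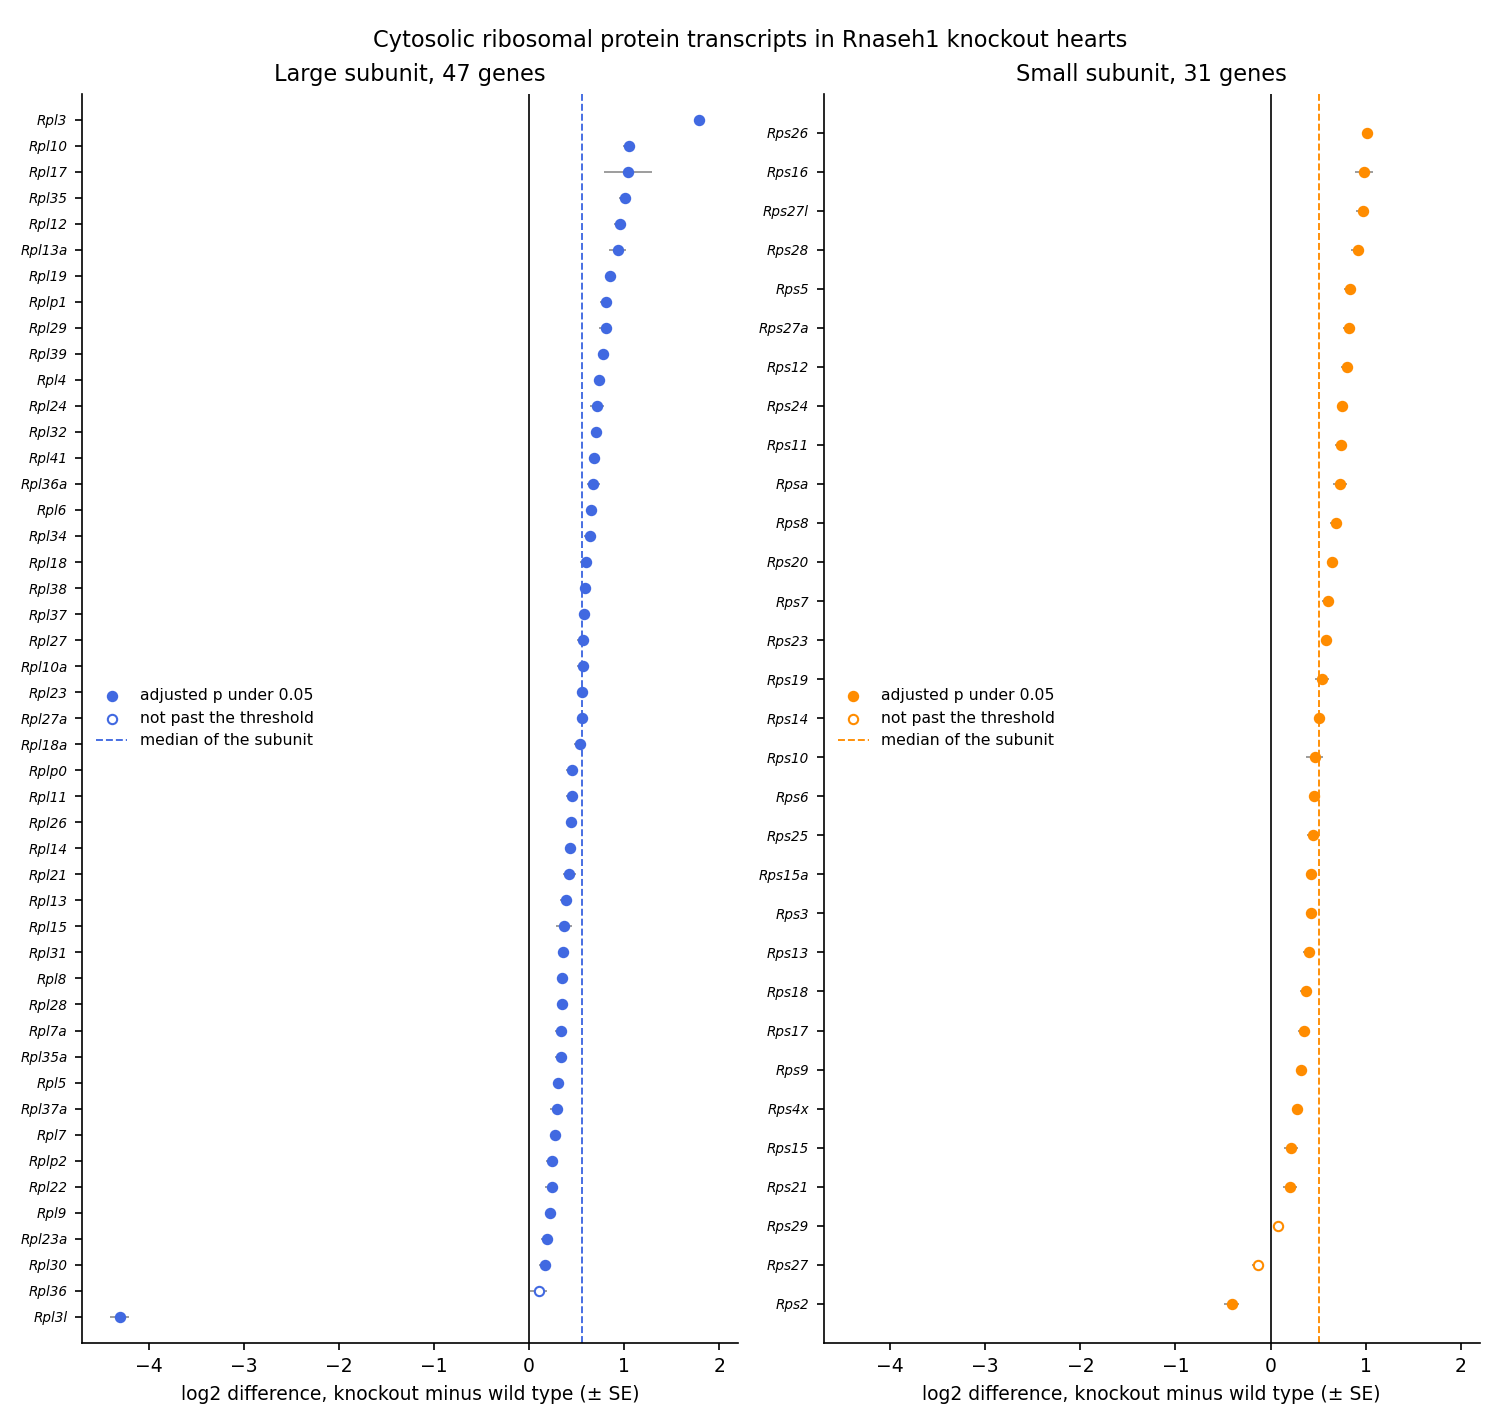
Log2 difference of normalised counts, knockout minus wild type, for the 47 large subunit genes on the left and the 31 small subunit genes on the right. Points are limma estimates from 4 hearts per genotype, bars are standard errors, open points did not pass adjusted p of 0.05, and dashed lines mark the subunit medians of 0.56 and 0.51. Nearly all points lie between 0 and 1, with *Rpl3* at 1.78 and *Rpl3l* at -4.31 standing apart.

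The summed normalised count of the members was 260372 ± 6155 in knockout hearts and 182046 ± 5560 in wild type hearts (SD, n = 4). As a share of all read pairs on nuclear genes the members took 1.51% ± 0.032 in the knockout and 0.902% ± 0.028 in wild type. The median member of a library, relative to the wild type mean of each gene, stood between 0.49 and 0.56 on the log2 scale in the knockout hearts and between -0.02 and 0.07 in the wild type hearts. The wild type heart 3 was the highest of its group, with 74 of the 78 members above their own wild type mean. Replicates were close for single genes, with a median coefficient of variation of 4.44% in the knockout and 4.49% in wild type. The counts behind these values were 381857 to 399792 read pairs on members per knockout library and 104973 to 144559 per wild type library.

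The libraries differed by genotype in more than these genes. Read pairs on all genes numbered 27429878 to 30505752 in knockout libraries and 31810103 to 40715847 in wild type libraries, but transcripts of mtDNA took 9.46% to 12.3% of them in the knockout and 60.2% to 62.6% in wild type. Nuclear genes were thus counted with 24835342 to 27146119 read pairs in the knockout and 11896021 to 16213429 in wild type. With libraries scaled to equal nuclear totals the median gene moved to 0.24, and with equal library totals to 1.44. The difference between the member median and the all-gene median was 0.52, 0.53 and 0.54 under the deposited scaling, nuclear totals and library totals. The calls over all genes split into 5241 higher and 4839 lower, 7355 and 3268, and 14953 and 567 in the same order of scalings, and those of the members into 73 and 2, 75 and 1, and 77 and 1.

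Bulk tissue was measured, so fewer cells of a type and less RNA per cell cannot be told apart. Transcripts of all 10 cardiomyocyte markers fell (median log2 difference -1.61, range -2.58 to -0.48), and their summed normalised count was 559655 to 668687 in knockout hearts, against 1.56e+06 to 1.62e+06 in wild type hearts; none of the 10 was at 0. Of 8 fibroblast markers 5 rose (median 0.91), and their sum was 71066 to 95306 in the knockout, against 26957 to 28258 in wild type. All 5 markers of activated fibroblasts rose (median 3.16), with a sum of 23680 to 33253 in the knockout, against 3911 to 6055 in wild type, and 7 of 8 macrophage markers rose (median 1.42), with a sum of 15660.0 to 18934 in the knockout, against 5610.1 to 6321 in wild type. Of 6 endothelial markers 1 was higher and 2 lower with the deposited scaling, 2 and 0 with equal nuclear totals, and 6 and 0 with equal library totals. With equal library totals 3 cardiomyocyte markers were higher and 5 lower. Over all 17046 genes tested 14953 were higher with that scaling, and 7355 were higher and 3268 lower with equal nuclear totals. With the deposited scaling 30.7% were higher and 28.4% lower. The part of these other cell types in the rise of ribosomal protein transcripts was not tested.

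The knockout libraries fell into pairs in some other genes. *Hba-a1*, which encodes the alpha chain of haemoglobin, had 1931, 1907, 5516 and 5101 in knockout hearts, against 3067, 3199, 3062 and 3425 in wild type hearts. The summed count of 4 erythroid markers was 6052 to 20812 in the knockout and 10265 to 12200 in wild type, and 0 of the 4 was called. Between knockout libraries 1 and 2 the chi-square of the counts per degree of freedom was 7.65, and between knockout libraries 1 and 3 it was 71.2. It was 23.7 between libraries 3 and 4, 27.3 between 2 and 4, 34.5 between 1 and 4 and 63.7 between 2 and 3. By this measure libraries 1 and 2 were close, while 4 was little nearer to 3 than to 2. Leaving out knockout hearts 1 and 2, which was chosen after seeing the data, 68 members were higher and 2 lower (median 0.53). Leaving out hearts 3 and 4 the calls were 73 and 3 (median 0.53). In the same order, the calls over all 17046 genes were 4923 higher and 4673 lower, and 5325 and 4965.

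Both subunits took part. Of the large subunit genes 45 of 47 rose (median 0.56), and of the small subunit genes 28 of 31 rose (median 0.51). Over all genes tested 30.7% were called higher. The sum of large subunit counts was 151684 ± 3396 in the knockout and 103876 ± 3212 in wild type, and that of small subunit counts was 108688 ± 2766 in the knockout and 78170.4 ± 2369 in wild type (SD, n = 4). The ratio of the large to the small sum was 1.40 ± 0.0054 in knockout hearts and 1.33 ± 0.0072 in wild type hearts. Without *Rpl3* and *Rpl3l* it was 1.33 ± 0.0038 in the knockout and 1.27 ± 0.0070 in wild type. The ratio does not depend on the scaling of a library, and the 4 knockout hearts lay above the 4 wild type hearts with and without that pair.

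*Rpl3* and *Rpl3l* moved furthest, in opposite directions. In the files *Rpl3* lies on chromosome 15 from 80077791 to 80091868 and *Rpl3l* on chromosome 17 from 24727820 to 24736143 (GRCm38). *Rpl3* had 7681, 7308, 7274 and 7390.1 normalised counts in knockout hearts, against 2196, 2023, 2239 and 2159.9 in wild type hearts. Each knockout heart was more than 3 times the level of any wild type heart. The log2 difference was 1.78 ± 0.05 (SE, limma adjusted p = 1.99e-09). *Rpl3l* had 115, 125, 94.5 and 97.1 in knockout hearts, against 2070.03, 2286, 2166 and 2042.5 in wild type hearts. The groups were far apart, with little spread inside each, and the log2 difference was -4.31 ± 0.10 (SE, adjusted p = 5.41e-10).

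Within a library, the log2 ratio of *Rpl3l* to *Rpl3* was -6.10 ± 0.19 in the knockout and -0.01 ± 0.12 in wild type (SD, n = 4), a difference of -6.09 with no correction for length. *Rpl3l* held 1.43% ± 0.19 of the reads of the pair in knockout hearts and 49.8% ± 2.16 in wild type hearts. It was 1.28% to 1.68% in single knockout hearts and 48.5% to 53.0% in single wild type hearts. The exact permutation test over 70 assignments gave p = 0.0286, the smallest it can give, and 0.0667 after adjustment over 7 pairs, so that no pair could pass 0.05 unless more pairs reached the minimum. The pair together had 7521 ± 190 normalised counts in the knockout and 4296 ± 84.9 in wild type. Per kilobase of exon, *Rpl3* had 2335 in the knockout and 679 in wild type, and *Rpl3l* had 65.7 in the knockout and 1303 in wild type. The length used joins the exons of all annotated transcripts, 3175 bases for *Rpl3* and 1643 for *Rpl3l*. The order of the pair in wild type hearts on this scale rests on these lengths, and the lengths of the transcripts present in heart were not measured.

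**Figure D2:**
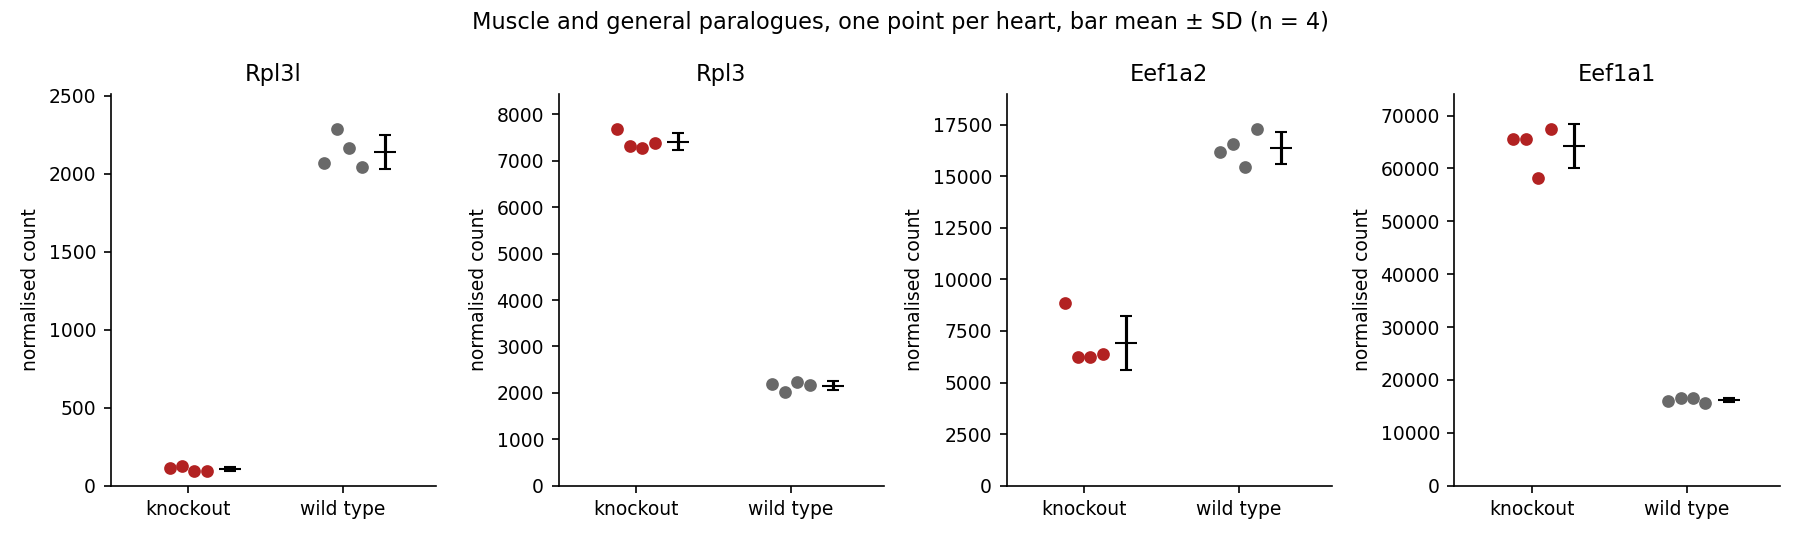
Normalised counts of *Rpl3l*, *Rpl3*, *Eef1a2* and *Eef1a1*, with knockout on the left and wild type on the right of each panel. Points are single hearts and bars the mean ± SD (n = 4). *Rpl3l* and *Eef1a2* were lower and *Rpl3* and *Eef1a1* higher in each of the 4 knockout hearts than in any wild type heart.

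The other pairs changed less. *Rpl10l* gave no ratio, and *Rpl26l1* was not among the genes listed, so that *Rpl26* had no pair. *Rps27l*, a paralogue of *Rps27* that p53 induces, rose to 1091, 1047, 936 and 961 in knockout hearts, against 520.1, 511, 524 and 499 in wild type hearts (log2 difference 0.97 ± 0.07 SE, adjusted p = 8.51e-07). *Rps27* had 2187, 2495, 2589.7 and 2332 in knockout hearts, against 2551, 2609, 2736 and 2595 in wild type hearts, which overlap (log2 difference -0.13 ± 0.06, adjusted p = 0.101). *Rps27l* thus held 29.6% ± 2.78 of the pair in the knockout and 16.4% ± 0.396 in wild type, and the log2 ratio differed by 1.10 (exact permutation p = 0.0286, adjusted p = 0.0667). *Rpl7l1*, which acts in ribosome assembly, held 11.6% ± 0.428 of its pair with *Rpl7* in the knockout and 13.1% ± 0.297 in wild type, a log2 difference of -0.20 (exact p = 0.0286, adjusted p = 0.0667).

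In the remaining pairs the groups overlapped. *Rpl22l1* held 13.4% ± 2.13 of its pair with *Rpl22* in the knockout and 12.5% ± 0.55 in wild type (log2 ratio difference 0.10, exact p = 0.6), and the difference was -0.02 without knockout heart 3. *Rpl36al* held 25.0% ± 1.12 of its pair with *Rpl36a* in the knockout and 27.7% ± 3.10 in wild type (-0.20, exact p = 0.257). *Rps4l*, a processed pseudogene in the annotation of the files, held 6.75% ± 0.786 of its pair with *Rps4x* in the knockout and 5.13% ± 0.891 in wild type (0.43, exact p = 0.0571). *Rpl39l* had at most 3.70 normalised counts in any heart, and its ratio to *Rpl39* rests on too few reads to be read (exact p = 0.171). Reads of close copies may be split between them by the alignment, so that the smaller member of each pair is uncertain to that extent.

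**Figure D3:**
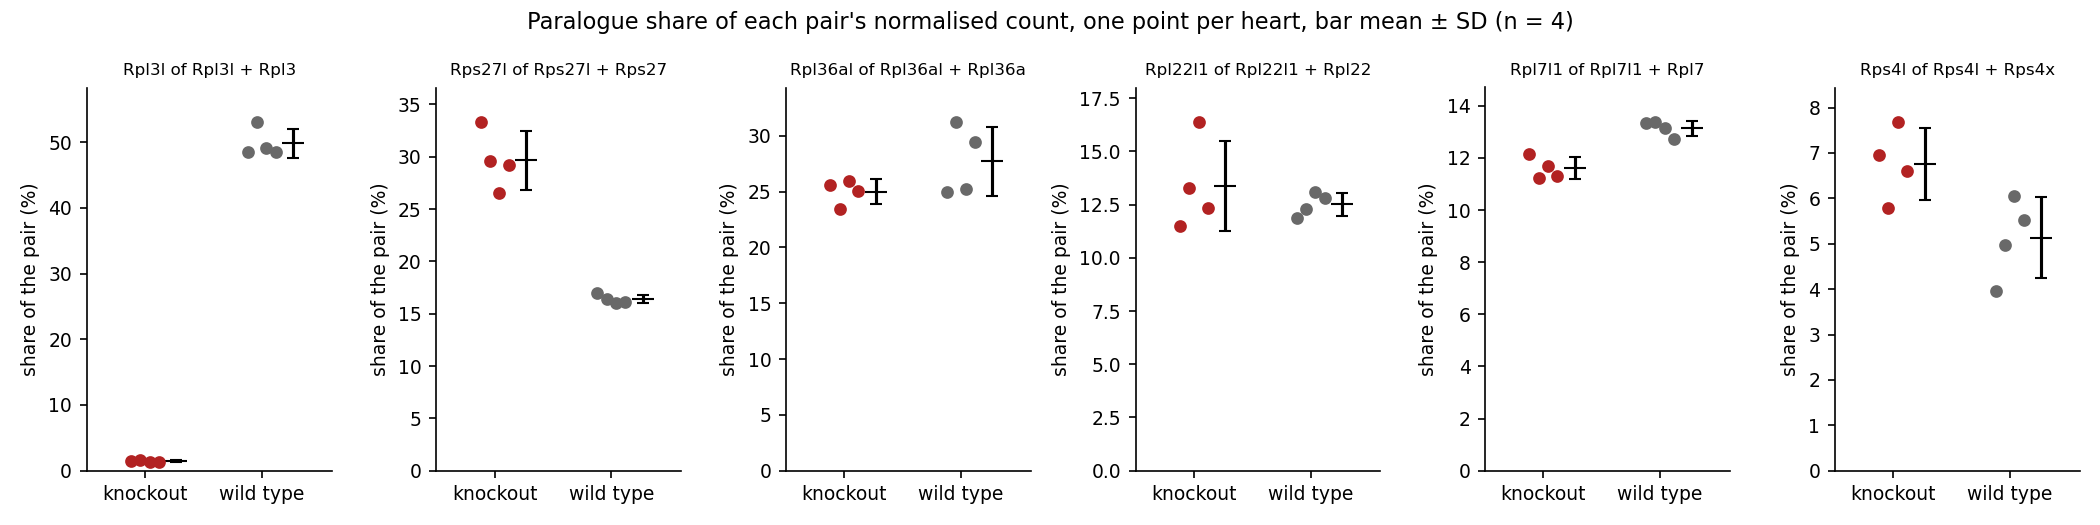
Share of each paralogue in the summed normalised count of its pair, in percent, with knockout on the left and wild type on the right of each panel. Points are single hearts and bars the mean ± SD (n = 4). The *Rpl3l* share was 1.28% to 1.68% in the knockout and 48.5% to 53.0% in wild type, and the *Rps27l* share lay higher in each knockout heart.

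The remaining members with the largest increases were spread over both subunits. *Rpl10*, which joins the large subunit among the last and completes the site where tRNAs bind, had 3855, 4120.1, 4482 and 4112 in knockout hearts, against 1882, 2040.5, 2064 and 1999 in wild type hearts (log2 difference 1.05 ± 0.06 SE, adjusted p = 1.75e-07). *Rps26*, a protein at the mRNA exit channel, had 1894, 1893, 1916 and 1944 in knockout hearts, against 947, 949, 963 and 922 in wild type hearts, with almost no spread in either group (1.02 ± 0.05, adjusted p = 6.43e-08). *Rpl35*, near the exit of the nascent chain, had 2145, 2156, 2261 and 2220.5 in knockout hearts, against 1013, 1035, 1157 and 1167 in wild type hearts (1.01 ± 0.06, adjusted p = 3.70e-07). Each of these genes was at about double its wild type level, with no overlap between the groups. *Rpl12*, at the base of the stalk, had 4355, 4444, 4259 and 4083 in knockout hearts, against 2148, 2275, 2396 and 2024 in wild type hearts (0.96 ± 0.06, adjusted p = 4.79e-07). *Rps16*, in the head of the small subunit, had 842, 844, 886 and 1093 in knockout hearts, against 471, 484, 420.2 and 471 in wild type hearts (0.98 ± 0.10, adjusted p = 8.30e-06), and knockout heart 4 was the highest.

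*Rpl17*, which lines the exit tunnel, had 540.1, 675, 601 and 503 in knockout hearts, against 216, 418, 386 and 174 in wild type hearts (1.04 ± 0.25, adjusted p = 0.00497). Its wild type hearts fell into a high and a low pair, and its coefficient of variation of 40.6% was the highest of the members. Rows named as *Rpl17* pseudogenes together held 134% of its own count, so that its level is uncertain. With these reads added its log2 difference was 0.70 (adjusted p = 0.000187), which is below those of the other genes named here for the largest increases. Of the 78 members, 50 had rows of named pseudogenes, and in 14 these held over 10% of the parent's count, as in *Rps10* (66.1%) and *Rpl14* (50.1%). For *Rpl3* the share was 7.54%. When these reads were added to the parents, 73 members were again called higher and 2 lower.

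*Rps2*, whose protein sits at the entrance of the mRNA channel, was the second member that fell, to 3502, 3537, 3177 and 2893 in knockout hearts, against 4355, 3923, 4667 and 4448 in wild type hearts (log2 difference -0.41 ± 0.08 SE, adjusted p = 0.00116). The groups did not overlap. The call depended on the scaling, with -0.18 (adjusted p = 0.063) for equal nuclear totals and 1.03 for equal library totals. *Rps29* had 3003, 3074, 2786 and 2848 in knockout hearts, against 2566, 2729, 2920.04 and 2845 in wild type hearts (0.08 ± 0.06, adjusted p = 0.256), and *Rpl36* had 2211, 2040.5, 2170.02 and 1763 in knockout hearts, against 1839, 1761, 2130.5 and 1891 in wild type hearts (0.10 ± 0.09, adjusted p = 0.334). In both genes the hearts of the genotypes were mixed in order. Among the alternatives run, *Rps27* was called lower only without knockout heart 3 (-0.17, adjusted p = 0.0274) and without knockout hearts 3 and 4 (-0.17, adjusted p = 0.0335).

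**Figure D4:**
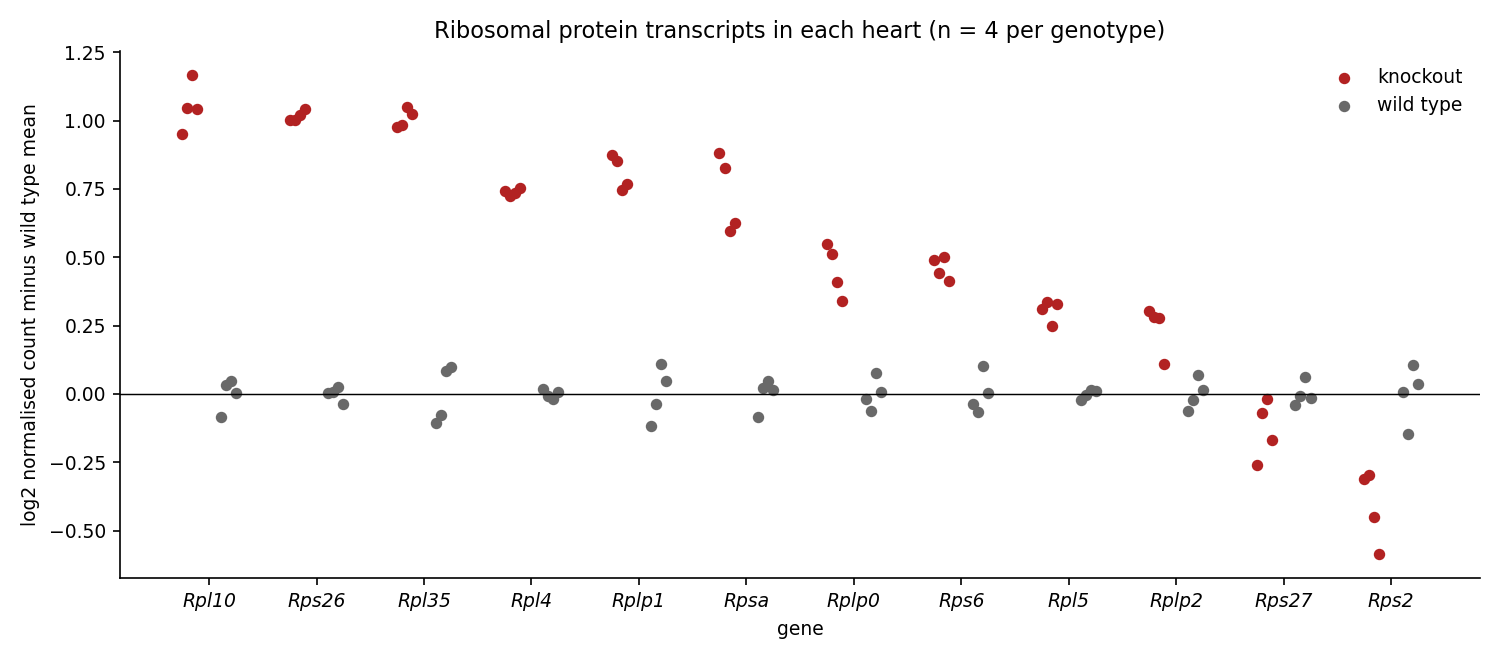
Log2 normalised count of 12 ribosomal protein genes in each heart, minus the mean of the 4 wild type hearts of that gene. For each gene the 4 knockout hearts stand left of the 4 wild type hearts. The knockout points lie near 1 for *Rpl10*, *Rps26* and *Rpl35*, stay above those of wild type down to *Rplp2*, overlap them in *Rps27* and lie below them in *Rps2*.

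The stalk of the large subunit recruits elongation factors and is made of a base protein, Rplp0, and dimers of Rplp1 and Rplp2. Its genes rose by unequal amounts. *Rplp0*, the member with the highest mean count, had 12598, 12278, 11451 and 10897 in knockout hearts, against 8497, 8243, 9072 and 8660.3 in wild type hearts (0.45 ± 0.06, adjusted p = 9.75e-05). *Rplp1* had 7068, 6964, 6463 and 6561 in knockout hearts, against 3552, 3756, 4165 and 3981 in wild type hearts (0.81 ± 0.06, adjusted p = 1.55e-06). *Rplp2* had 2738, 2697, 2687 and 2393 in knockout hearts, against 2124, 2182, 2327 and 2238 in wild type hearts, where the lowest knockout heart was just above the highest wild type heart (0.24 ± 0.06, adjusted p = 0.00548).

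Other members with high counts rose in the same range. *Rpl4*, a protein of the exit tunnel wall, had 11823, 11681, 11759 and 11914 in the knockout, against 7154, 7017, 6979 and 7106 in wild type (0.74 ± 0.04, adjusted p = 2.36e-07), and at 0.839% its coefficient of variation among knockout hearts was the smallest of all members. *Rpsa*, which also acts at the cell surface as the laminin receptor, had 8576, 8265, 7035 and 7185 in knockout hearts, against 4399, 4734, 4813 and 4703 in wild type hearts (0.73 ± 0.07). *Rps24* had 6928, 6784, 7041 and 7524 in knockout hearts, against 4223, 4173, 4142 and 4278 in wild type hearts (0.75 ± 0.05), and *Rpl7* had 6694, 6934, 6526 and 6639 in knockout hearts, against 5516, 5454, 5743 and 5451 in wild type hearts (0.27 ± 0.05). None of these genes had overlapping groups.

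Some members have roles outside or at the margin of the ribosome. *Rpl5* and *Rpl11*, whose free proteins bind Mdm2 and so stabilise p53, rose by less than or near the member median, with *Rpl5* at 4283, 4354, 4103 and 4338 in the knockout against 3394, 3444, 3490.1 and 3479 in wild type (0.31 ± 0.05, adjusted p = 0.000239), and *Rpl11* at 0.45 ± 0.06 (adjusted p = 6.70e-05). *Rps6*, the protein that S6 kinase phosphorylates, had 3282, 3179.95, 3311 and 3114 in knockout hearts, against 2277, 2233, 2509 and 2341 in wild type hearts (0.46 ± 0.06, adjusted p = 3.98e-05). *Rps27a*, made as a fusion with ubiquitin, rose by 0.82 ± 0.06 (adjusted p = 1.57e-06). *Rpl22*, *Rpl36a*, *Rpl39* and *Rps4x*, the common partners of paralogues, rose by 0.24, 0.68, 0.78 and 0.28, and *Rpl22* did not pass without knockout hearts 1 and 2 (0.14, adjusted p = 0.111). *Rpl26*, for which no paralogue was listed, rose by 0.44. *Rps10* rose by 0.46 ± 0.09 (adjusted p = 0.00139), and its exons overlap a read-through gene on the same strand.

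The size of the change varied among the members. Leaving out *Rpl3* and *Rpl3l*, the log2 differences had an SD of 0.28 over genes. Across these 76 genes of the same 8 libraries, Spearman's rho of the log2 difference was -0.15 with the mean level and -0.09 with exonic length. A snoRNA gene on the same strand lies inside 29 of the 78 members (37.2%), against 246 of 13584 protein-coding genes tested (1.81%). Many snoRNAs that guide rRNA modification are cut from the introns of these genes. The median log2 difference was 0.65 for members with a snoRNA gene and 0.45 for those without. Of the members with a RefSeq window, the 30 with CTTTCC on either strand had a median of 0.55 and the 28 without it 0.46, and the 24 with CCGGAAG had 0.57 and the 34 without it 0.44. These medians are descriptions. *Rpl35*, *Rpl4* and *Rpl38* rose while *Rps27* was not called, and the start windows printed above hold CTTTCC in all 4.

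Of 8 ribosomal protein genes that the name pattern misses, 6 rose and 0 fell by limma (median 0.39), and DESeq2 called 5 higher and 0 lower. Over all genes limma called 30.7% higher and 28.4% lower. *Rpl7l1* (0.07 ± 0.06, adjusted p = 0.354) and *Rps27rt* (0.44 ± 0.43, adjusted p = 0.398) did not pass, and *Rps27rt* had few reads. *Fau*, which encodes the small subunit protein eS30 fused to a ubiquitin-like protein, had 1731, 1726, 1759 and 1615 in the knockout, against 937, 930.3, 1131 and 1001 in wild type (0.78 ± 0.07). *Rack1*, a scaffold on the head of the small subunit, had 8443, 8158, 8289.8 and 8076 in knockout hearts, against 4819.5, 4961, 5180.4 and 5264 in wild type hearts (0.71 ± 0.05).

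Of 12 factors of translation elongation and termination 9 rose and 1 fell (median 0.59), beside 30.7% higher and 28.4% lower over all genes. *Eef1a1*, the general form of the factor that brings tRNA to the ribosome, had 65636, 65620.0, 58199 and 67424 in knockout hearts, against 16033, 16527, 16641 and 15712 in wild type hearts (1.98 ± 0.06, adjusted p = 3.48e-09). *Eef1a2*, its form in muscle and neurons, was chosen after its values were seen, and fell to 8862, 6213, 6249 and 6370.1 in knockout hearts, against 16172, 16560.4, 15438 and 17279 in wild type hearts (-1.26 ± 0.11, adjusted p = 3.34e-06). With equal library totals *Eef1a2* was at 0.19 (adjusted p = 0.134). *Eef1a2* held 9.72% ± 1.53 of the pair in the knockout and 50.2% ± 1.74 in wild type, which is a share inside a library and does not depend on scaling. *Eif5a2*, a paralogue of an elongation factor, rose by 1.46 ± 0.15, and *Etf1*, the termination factor that reads stop codons, by 1.26 ± 0.08.

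Of 13 other mRNAs with a TOP tract 9 rose and 1 fell (median 0.31), beside 30.7% higher and 28.4% lower over all genes. With equal library totals 13 were higher, as were 14953 of the 17046 genes tested. *Btf3*, a subunit of the complex that meets nascent chains, rose by 1.22 ± 0.06, *Gas5*, a host of snoRNAs, by 1.06 ± 0.11, and *Pabpc1*, the poly(A)-binding protein, by 0.93 ± 0.09. Of 18 genes that control the translation of ribosomal protein mRNAs 8 rose and 6 fell (median 0.12), beside 30.7% higher and 28.4% lower over all genes. The split was 10 higher and 3 lower with equal nuclear totals, 18 and 0 with equal library totals (median 1.56), and 5 and 8 without knockout hearts 3 and 4. In the same order, the calls over all 17046 genes were 7355 and 3268, 14953 and 567, and 5325 and 4965. *Sesn2*, a stress-induced inhibitor of mTORC1, had 1535, 1149, 950.1 and 1059.8 in knockout hearts, against 82.7, 93.6, 83.4 and 98.4 in wild type hearts (3.68 ± 0.14, adjusted p = 1.27e-08). *Eif4ebp1*, a repressor of cap-dependent initiation that mTOR inactivates, had 3628, 3208, 4044 and 3867 in knockout hearts, against 768, 869.9, 932 and 840.8 in wild type hearts (2.11 ± 0.08). *Ddit4*, another inhibitor of mTORC1, had 454, 404, 1658 and 975 in knockout hearts, against 421, 198, 235 and 347 in wild type hearts. Its groups overlapped (1.36 ± 0.42, adjusted p = 0.0167). The 6 genes of this list that fell were *Eif4ebp2* (-0.81), *Pdcd4* (-0.70), *Larp4b* (-0.46), *Tsc2* (-0.33), *Rptor* (-0.26) and *Tsc1* (-0.25). With equal library totals *Eif4ebp2* and *Pdcd4* were higher, at 0.64 and 0.74. Of 10 chaperones and modifiers of ribosomal proteins 4 rose and 2 fell (median 0.14), again near the shares over all genes. The split was 5 higher and 1 lower with equal nuclear totals and 10 and 0 with equal library totals (median 1.58). Under these scalings the calls over all 17046 genes were 7355 and 3268, and 14953 and 567. *Grwd1*, whose yeast counterpart is the chaperone of Rpl3, rose by 1.40 ± 0.14, *Ltv1*, an assembly factor of the small subunit, by 1.09 ± 0.09, and *Mettl18*, which methylates a histidine of Rpl3, fell to 35.5, 39.7, 58.0 and 53.0 in knockout hearts, against 82.7, 80.1, 108 and 86.3 in wild type hearts (-0.94 ± 0.19, adjusted p = 0.00175). With equal library totals *Mettl18* was higher, at 0.48.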

How the data were processed

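Total RNA of 4 *Rnaseh1* knockout and 4 wild type hearts was sequenced as paired-end libraries. According to the study's methods and the submitters' processing notes, the authors aligned to GRCm38 (mm10) with HISAT2 2.10, assigned them to genes with featureCounts 1.6.3, taking strand into account, and scaled with DESeq2 1.18.1. What was deposited is a normalised signal: the authors divided the counts of a library by its DESeq2 size factor. A deposited sheet with the authors' own fold changes and p-values was not used. Recovered read pairs were whole for 100% of values within a tolerance of 0.01.

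The 17046 genes whose mean over the 8 libraries reached 10 were tested with limma-trend (limma 3.58.1, R 4.3.3) on log2(value + 1), two-sided, Benjamini-Hochberg, threshold 0.05; the pseudocount understates changes of low genes. edgeR 4.0.16 with TMM and DESeq2 1.42.0 on the recovered reads were alternatives, and the test was checked on simulated data. Paralogue ratios were compared by exact permutation. Log2 differences are knockout minus wild type and are followed by the SE, and levels in each heart are normalised counts. Exonic lengths and overlaps are from GENCODE M21, in which 76 of the 78 members had the same start and end as in the files. Promoter windows are from RefSeq (GRCm38.p6).

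The members and gene lists were chosen with earlier results of these data known. Named genes were the 8 members with the largest change in each direction among those called, the paralogue pairs and the stalk proteins. Named as well were *Rpl5*, *Rpl11*, *Rpl10*, *Rps6*, *Rpsa*, *Rps27a*, the 5 members of highest mean and the members next to the limit of 10. Of each list up to 3 genes were named. The 3 members not called, *Rps21* and the 6 genes that fell in the list of translation control were named after their values were seen. The lists of lymphocyte, erythroid, mural and skeletal muscle fibre markers had 0, 0, 1 and 2 genes higher and 0, 0, 3 and 2 lower. In these lists 1, 4, 6 and 4 genes were tested, and over all genes 30.7% were called higher and 28.4% lower. With equal library totals the erythroid and mural counts were 4 and 6 higher and 0 lower, when 14953 of all 17046 genes were higher. The labels give separate samples and the study 4 animals per group. The limma p-values set the difference between genotypes against the spread between samples of a group, moderated across genes. No libraries agreed within sampling noise.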

Additional observations from a re-analysis of the deposited data

Results flagged for a closer look

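Among 28 named members in 2 groups of 4 hearts each (56 sets of values), 2 had a heart far from the other 3 of its group, and chance gives about 1 in 20. The highest knockout heart for *Rps4x*, a small subunit protein encoded on the X chromosome, had 6273.76 normalised counts, while the other knockout hearts had 5843, 5761 and 5819. The lowest knockout heart for *Rplp2* had 2393.19, while the others had 2738, 2697 and 2687. Both genes were called higher with and without the heart in question.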

How the results depend on the processing

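The count of members called higher was 68 to 77 under all alternatives run (other scalings, edgeR, DESeq2, pseudocounts of 0.5 and 5, no filter, a minimum mean of 50, pseudogene reads added, the replicate block, leaving out single hearts, 70 to 73, and leaving out knockout hearts 1 and 2 or 3 and 4, 68 and 73), against 73. Over all 17046 genes, 14953 were called higher in the setting with 77 members, which is equal library totals. In the setting with 68 members, without knockout hearts 1 and 2, 4923 genes were called higher, against 5241 with the deposited scaling and all hearts. Scaling moved the values most. With equal nuclear totals 1 member was lower and the medians were 0.77 (all members), 0.79 (large subunit) and 0.74 (small subunit), *Rps2* was at -0.18 (adjusted p = 0.063) and *Rps27* at 0.10. With equal library totals 1 member was lower and the medians were 1.98, 2.0 and 1.95, *Rps2* was at 1.03 and *Rps27* at 1.31; these shifts follow from the scaling of all genes (medians 0.24 and 1.44). Leaving out single hearts moved the member median between 0.52 and 0.57, the members lower between 2 and 3, and the *Rpl22l1* against *Rpl22* difference between -0.022 and 0.17. The replicate numbers do not pair the samples (correlations of deviations -0.07 to 0.04, and 0 of 4 numbers matched best with their own); with the replicate block 70 members were higher and 2 lower, and the ratio differences stayed at -6.09 for *Rpl3l* against *Rpl3*, 1.10 for *Rps27l* against *Rps27* and -0.20 for *Rpl7l1* against *Rpl7*, where permutation within pairs allows no p below 0.125. *Rpl39l* and *Rpl10l* had too few reads for the test across genes, as had 4 of 5 lymphocyte markers and 3 of 7 skeletal muscle fibre markers.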

Other observations

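The members that fell, *Rps2* and *Rpl3l*, are neighbours on chromosome 17, with 5890 bases between them on GRCm38; the interval was looked at after their values were seen. Within 50000 bases on either side 9 genes were tested, of which 4 rose and 3 fell, *Rps2* and *Rpl3l* being 2 of the 3; over all genes 30.7% were called higher and 28.4% lower. *Ndufb10*, a subunit of respiratory complex I, lies between them and fell to a mean of 3007 normalised counts in knockout hearts, against 7277 in wild type hearts (log2 difference -1.28 ± 0.06 SE, limma adjusted p = 2.66e-08). *Snora78*, a snoRNA gene within the coordinates of *Rps2*, had a mean of 221 in knockout hearts and 147 in wild type hearts (0.58 ± 0.13, adjusted p = 0.00249). The count of snoRNA genes inside members took only the same strand and gave 1 for *Rps2*. The snoRNA gene that overlapped its exons on that strand was *Snora64*. The strand of *Snora78* was not looked at by itself, so that *Rps2* is not shown to be its host. Beyond this stretch *Tbl3*, *Gfer* and *Zfp598* were higher by 0.78, 0.66 and 0.78, and *Msrb1* and *Noxo1* did not pass the test (0.07 and 0.01).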
